A study of Danio rerio with 6 samples.

Results

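Collagens are the triple-helical proteins of the extracellular matrix. The 52 collagen genes described here are the rows of the larger deposited gene table, 21769 genes in all, whose symbol begins with col, a type number, the letter a and a chain number. They cover 50 symbols and 21 collagen types. Zebrafish of strain AB were collected 36 hours after fertilization (hpf) for RNA sequencing, giving 3 libraries of embryos mutant for *dhx38* (labelled dhx38-- or dhx38-/-) and 3 libraries of their wild-type siblings. The *dhx38* product is a DEAH-box helicase that acts in pre-mRNA splicing. The labels name the tissue tail in one field and trunk in another, and state neither the mutation nor how many embryos were pooled. The question was how collagen transcripts, by structural class, stood in the mutants.

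Each collagen molecule is a trimer of chains built from repeats of glycine and other amino acids, among them many prolines. Fibrillar collagens pack into the rope-like fibrils of skin, tendon, bone and cartilage. Type IV chains form the sheet of basement membranes, and fibril-associated collagens with interrupted helices (FACITs) bind to the surface of fibrils. In the zebrafish embryo the notochord sheath, the pectoral fin and head cartilage, the skin and the fin fold are the main sites of collagen production, and types II, IX and XI are the shared set of cartilage and notochord sheath. By type number the 52 genes fell into 15 fibrillar genes, 6 of type IV, 3 multiplexins, 2 of the anchoring fibril type VII, 13 FACITs, 2 short-chain network genes, 9 of types VI and XXVIII and 2 transmembrane genes. A second grouping, which crosses these classes, took the 12 genes of types II, VIII, IX, XI and XXVII as genes of notochord and cartilage.

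The authors deposited normalized CPM, which are reads per 1 M reads after a scaling between libraries, and a difference is the log2 fold change of mutant over sibling on the log2(value + 1) scale. The targeted gene *dhx38* was at 57.2, 90.4 and 53.1 normalized CPM in mutant replicates 1, 2 and 3, against 33.8, 33.8 and 27.3 in sibling replicates 1, 2 and 3. All mutant libraries exceeded all sibling libraries, and the labels do not say what change in transcript the mutation should give. The gene did not pass an adjusted p of 0.05 (limma, Benjamini-Hochberg adjusted p = 0.063) and passed when the replicate number was a block (adjusted p = 0.00664). Depth was 19.5 to 37.7 M reads per library, with replicate 3 of both groups the shallower. Over all genes, 370 of 21769 passed without the block and 2986 with it. The lens marker list, 21 of 22 genes measured, summed to 779 to 2765 normalized CPM in mutants and 2366 to 3457 in siblings, in tissue labelled tail or trunk. In bulk tissue, fewer cells of a type and less RNA per cell cannot be told apart.

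No collagen passed the test between mutants and siblings without the block. Of 52 collagens 0 passed (limma, smallest Benjamini-Hochberg adjusted p = 0.102, for *col24a1*), where 1.7% of all genes passed and 1.41% rose. At an unadjusted p under 0.05 there were 6, all higher in mutants, or 11.5% of the collagens beside 20.9% of all genes and 10.2% that were higher. With the replicate block 3 collagens rose and 0 fell, beside 6.85% and 6.87% of all genes. The 3 were *col24a1*, *col28a1a* and *col4a3*. With the block and a pseudocount of 0.1 these 3 did not pass either (smallest adjusted p = 0.0879). The share of collagens called was thus no larger than that of all genes in either fit.

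The typical difference was small and upward. The median log2 fold change of the 52 was 0.14, beside -0.01 over all genes, and 38 of 52 collagens had a positive value, as had 49.2% of all genes. Single values ran from -0.55 for *col9a1a* to 0.75 for *col24a1*. The groups did not overlap in 4 of 52 collagens, or 7.69%, beside 27.1% of all genes. Without sibling replicate 2 the collagen median was -0.02, and without sibling replicate 3 it was 0.32. Each of these fits keeps the mutant library of the number left out, so replicate numbers are unequal between the groups. The share of each library's summed signal that fell on collagens was 1.54%, 1.61% and 1.68% in mutant replicates 1, 2 and 3, against 1.29%, 1.19% and 1.83% in sibling replicates 1, 2 and 3. Collagen made up more of the mutant library than of its sibling in replicates 1 and 2, and less in replicate 3.

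**Figure D1:**
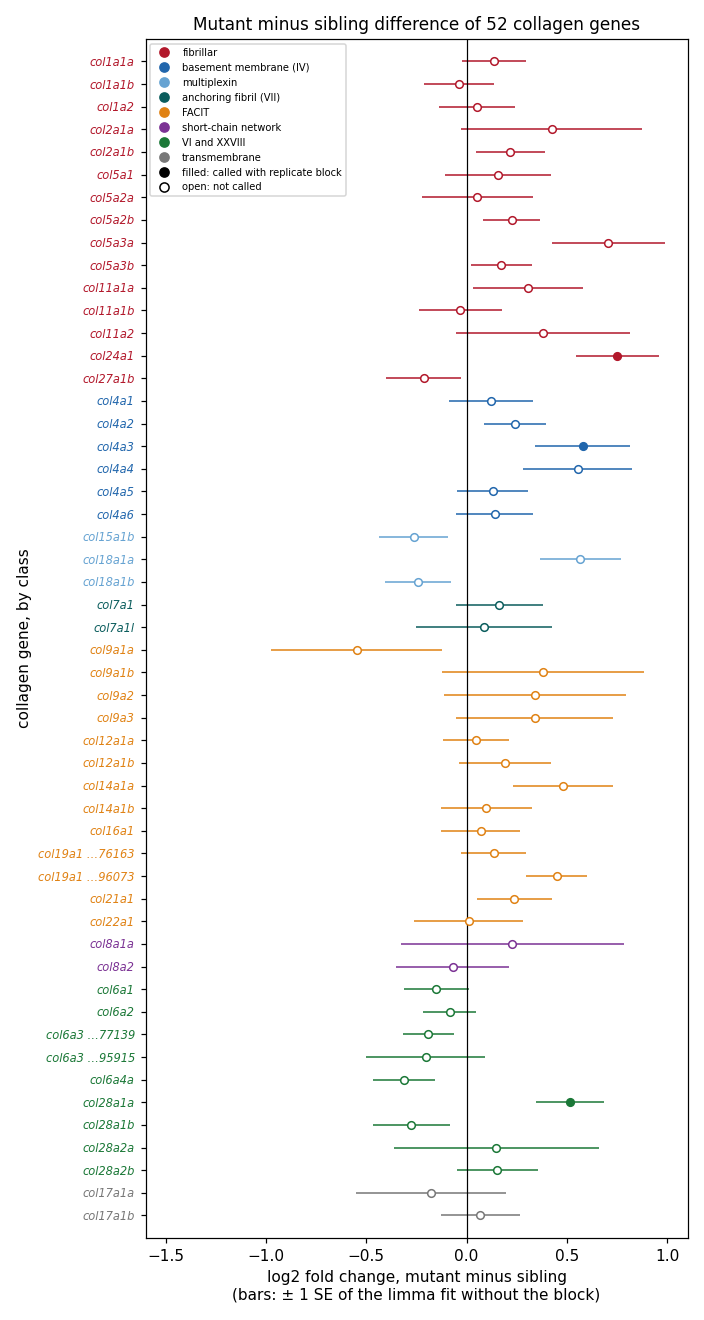
Log2 fold change (mutant minus sibling) of each of the 52 collagen genes, coloured by class, with bars of ± 1 SE from the limma fit without the block (n = 3 per group). Filled points are the 3 genes that passed with the replicate block, and most points lie between 0 and 0.5, many with bars that cross 0.

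The direction of the collagen median differed between the pairs of libraries. With 1 library per group and number, a dependence of the mutant difference on replicate number cannot be told apart from the spread of single libraries. Within pairs of libraries with the same number, the median collagen difference was 0.25 in pair 1, 0.31 in pair 2 and -0.11 in pair 3, while over all genes it was -0.01, -0.01 and 0.00. The mutant library was the higher for 44 of 52 collagens in pair 1, 39 in pair 2 and 15 in pair 3. Over all genes it was the higher for 10562, 10704 and 10818 of 21769. In 21 of 52 the mutant was higher in pairs 1 and 2 and lower in pair 3, as in 9.29% of all genes. The mutant was higher in all 3 pairs for 14 collagens, or 26.9%, beside 25.6% of all genes. It was lower in all 3 for 5, or 9.62%, beside 27%. The replicates differ in depth, and the labels name 2 sequencing providers without assigning libraries to them. The part of depth or provider in this pattern was not tested.

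**Figure D2:**
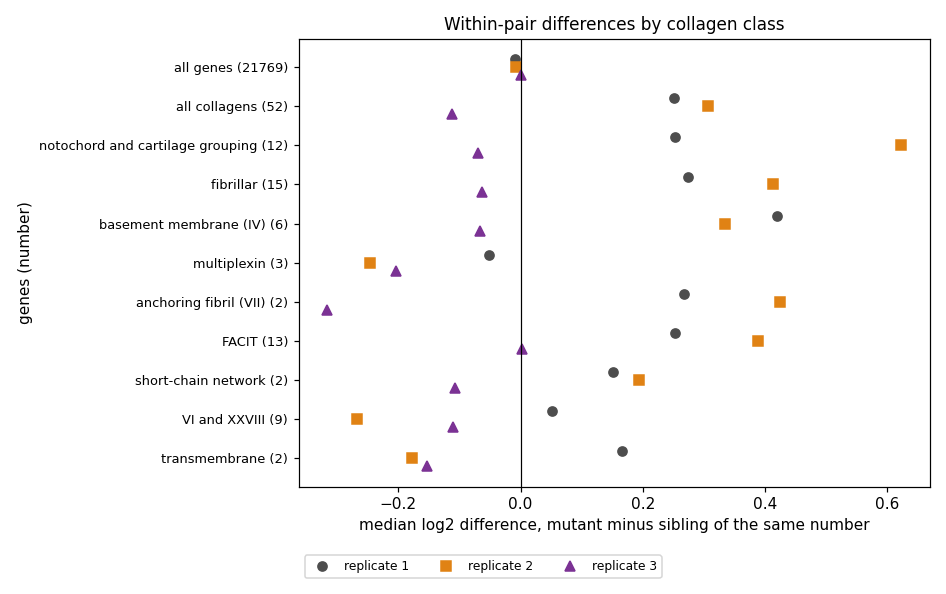
Median log2 difference (mutant minus sibling of the same replicate number) over the genes of each class, with the number of genes in parentheses and a marker per replicate number. For all collagens the medians were 0.25, 0.31 and -0.11 in replicates 1, 2 and 3, and replicate 3 lies left of 0 in every class other than the FACITs, at 0.003.

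More of the variation of collagen levels went with replicate number than with genotype. On the log2 scale, each gene's sum of squares over the 6 libraries was divided into genotype, replicate number and the rest. Replicate number took a median of 67.9% and genotype 11% over the collagens, beside 42% and 27.6% over all genes. Where neither has an effect, replicate number, with 2 degrees of freedom, is expected to take more than genotype, with 1. Replicate number held more than 50% in 29 of 52 collagens and genotype in 7. The same counts were not made over all genes, so they do not set collagens apart. The replicate 3 value was at least 1.5 times the mean of replicates 1 and 2 in both groups in 7 of 52 collagens, or 13.5%, beside 3.3% of all genes. These 7 were *col2a1a*, *col8a1a*, *col9a1b*, *col9a2*, *col9a3*, *col11a2* and *col28a2a*, of which 6 belong to the notochord and cartilage grouping. At most 1/1.5 of that mean in both groups was found in 3 collagens, or 5.77%, beside 6.93% of all genes.

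**Figure D3:**
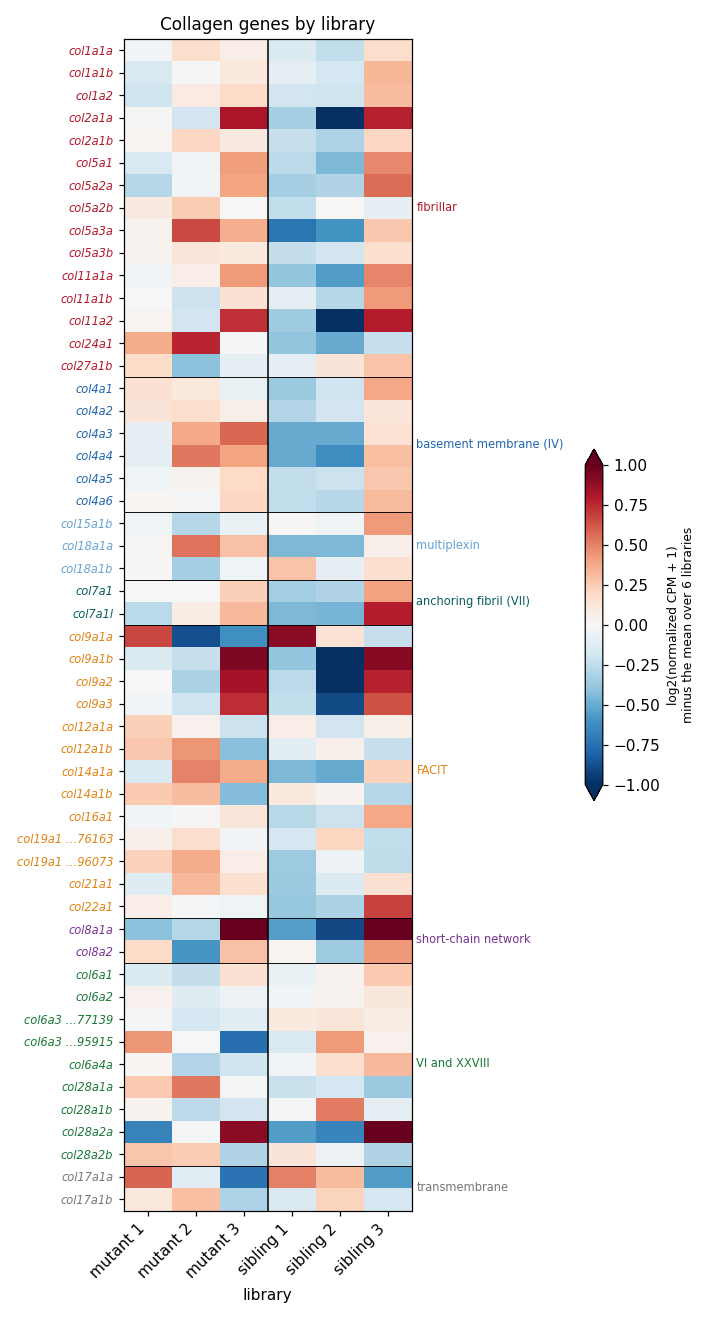
Log2(normalized CPM + 1) of the 52 collagen genes in the 6 libraries, minus each gene's mean over the 6, with rows grouped by class and the mutant libraries on the left. Replicate 3 of both groups is red for *col2a1a*, *col8a1a*, *col9a1b*, *col9a2*, *col9a3*, *col11a2* and *col28a2a*, and blue for *col17a1a*. The colour scale ends at -1 and 1.

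Replicate 3 reached 1.5 times the other replicates in both groups for 6 of the 12 notochord and cartilage genes and 1 of the other 40. Replicate number took a median of 84% of the sum of squares in the 12 and 45.6% in the other 40. It took 89% in the 2 transmembrane genes. *col2a1a*, the main type II chain of cartilage and notochord sheath, was at 1159, 1002 and 2019 normalized CPM in mutant replicates 1, 2 and 3, against 910.1, 546 and 1957 in sibling replicates 1, 2 and 3. Replicate 3 stood above the other libraries of its group, by 1.87-fold in mutants and 2.69-fold in siblings relative to their mean, and sibling replicate 2 was the lowest library. The log2 fold change was 0.42 (SE 0.45, limma adjusted p = 0.64, and 0.128 with the replicate block). Within pairs the differences were 0.35, 0.88 and 0.04. Its duplicate *col2a1b* was flatter, at 741, 839 and 776 normalized CPM in the mutant libraries, against 621, 587 and 841 in the sibling libraries (0.22, SE 0.17, limma adjusted p = 0.512).

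Type IX collagen coats type II fibrils. *col9a1b* was at 252, 235 and 530.2 normalized CPM in the mutant libraries, against 211, 129 and 521 in the sibling libraries. *col9a2* was at 203, 164 and 363 normalized CPM in the mutant libraries, against 169, 100.2 and 348 in the sibling libraries. *col9a3* was at 178, 157 and 302 normalized CPM in the mutant libraries, against 152, 96.8 and 281 in the sibling libraries. All 3 were close between the groups in replicate 3 and higher in the mutants in replicates 1 and 2, with within-pair differences of 0.25, 0.86 and 0.02 for *col9a1b*. Their log2 fold changes were 0.38 (SE 0.50), 0.34 (SE 0.45) and 0.34 (SE 0.39), with limma adjusted p from 0.668 to 0.717, and 0.164 to 0.169 with the block. *col9a1a*, the other alpha 1 gene, went the opposite way. It was at 19.5, 6.0 and 7.38 normalized CPM in the mutant libraries, against 23.1, 13.2 and 9.97 in the sibling libraries, with replicate 1 of each group the highest. Its log2 fold change was -0.55 (SE 0.43, limma adjusted p = 0.508, and 0.0631 with the block), and the mutant was the lower in all 3 pairs (-0.23, -1.02 and -0.39).

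Type XI chains initiate type II fibrils, and type VIII is a short-chain collagen that zebrafish mutants link to notochord form. *col11a2* was at 194, 166 and 316 normalized CPM in the mutant libraries, against 148, 94.4 and 328 in the sibling libraries. *col11a1a* was at 775, 828 and 1061 normalized CPM in the mutant libraries, against 606, 537 and 1109 in the sibling libraries. *col8a1a* was at 40.3, 44.2 and 112 normalized CPM in the mutant libraries, against 36.5, 28.4 and 118 in the sibling libraries, so that replicate 3 exceeded the mean of the other replicates 2.64-fold in mutants and 3.63-fold in siblings. The log2 fold changes were 0.38 (SE 0.43), 0.31 (SE 0.28) and 0.23 (SE 0.56), with limma adjusted p of 0.665, 0.573 and 0.858. *col8a2* was at 4.76, 2.35 and 5.19 normalized CPM in the mutant libraries, against 4.15, 2.94 and 5.81 in the sibling libraries. Leaving out sibling replicate 2 turned the sign for *col2a1a*, *col9a1b*, *col9a2*, *col9a3*, *col11a2* and *col8a1a*. That fit keeps mutant replicate 2, so replicate numbers are then unequal between the groups. Within pairs the mutant was higher in all 3 for *col2a1a*, *col9a1b*, *col9a2* and *col9a3*. For *col11a2* and *col8a1a* it was higher in pairs 1 and 2 and lower in pair 3. The sum over the 12 genes of the grouping was 3778, 3626 and 5725 in the mutant libraries, against 3079, 2309.7 and 5802 in the sibling libraries, in normalized CPM. Of the 12, 0 passed with or without the block (limma; 0 at an unadjusted p under 0.05 without it), and their median log2 fold change was 0.27, beside 0.13 for the other 40. Among all genes 13.7% passed with and 1.7% without the block.

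The sum of cartilage markers was also highest in replicate 3 of each group, and it was lower in the mutant of each pair. The list, with 12 of 13 genes measured, summed to 722, 625 and 1181 in the mutant libraries, against 797, 701 and 1240.3 in the sibling libraries. The hyaluronan link protein gene *hapln1a* and the matrilin gene *matn4* made up most of this sum, and *matn1*, *acanb* and *fgfbp2b* were under 2 normalized CPM in each library. Of the 12 cartilage genes 6 had a positive log2 fold change, and the list median was 0.005. Replicate 3 exceeded the mean of the other replicates for 7 of the 12 in mutants and 9 in siblings. Notochord markers, 11 of 14 measured, summed to 493, 552 and 662 in the mutant libraries, against 463, 408 and 539 in the sibling libraries, with *noto* and *tbxtb* near 1 or below. The notochord sum was thus higher in the mutant of each pair. Of the 11 notochord genes 10 had a positive log2 fold change, and the list median was 0.16. The notochord transcription factor gene *tbxta* was at 14.4, 17.9 and 30.0 normalized CPM in the mutant libraries, against 13.4, 11.1 and 28.1 in the sibling libraries. Replicate 3 was the highest of its group for both sums and for *tbxta*, and the part of these cell types in the collagen values was not tested. None of the genes of these 2 lists passed without the block (limma; 1 at an unadjusted p under 0.05), and *fgfbp2b* fell with it (limma adjusted p = 0.0424). The shares over all genes were 1.7%, 20.9% and, for a fall with the block, 6.87%.

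**Figure D4:**
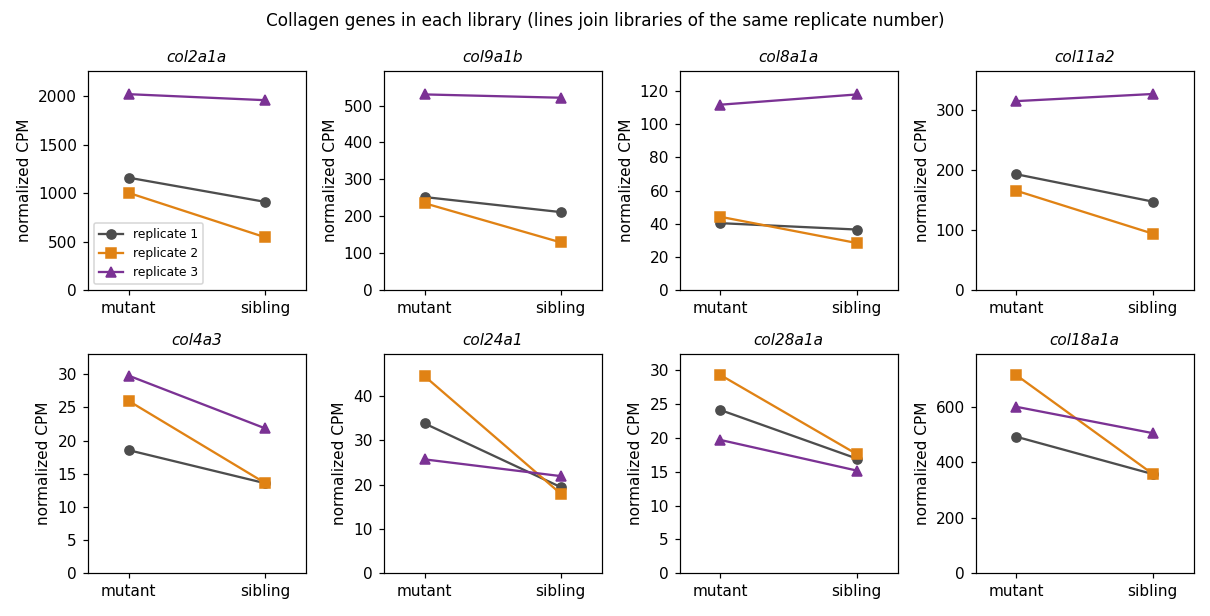
Normalized CPM of 8 collagen genes in the 6 libraries, with mutants on the left and lines that join libraries of the same replicate number. In *col2a1a*, *col9a1b*, *col8a1a* and *col11a2* replicate 3 lies above the other replicates in both groups. In *col4a3*, *col24a1*, *col28a1a* and *col18a1a* every line falls towards the sibling.

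Type I, the most abundant collagen of skin and later bone, was close between groups. Zebrafish has 2 alpha 1 genes and 1 alpha 2 gene. *col1a1a* was at 3796, 4370.2 and 4049 normalized CPM in mutant replicates 1, 2 and 3, against 3530.5, 3269 and 4381 in sibling replicates 1, 2 and 3. *col1a1b* was at 1516, 1675 and 1820.1 normalized CPM in the mutant libraries, against 1585, 1492 and 2125 in the sibling libraries. *col1a2* was at 1222, 1488 and 1609.8 normalized CPM in the mutant libraries, against 1237, 1222 and 1746 in the sibling libraries. The groups overlapped in each of the 3, and sibling replicate 3 was the highest library for each. Log2 fold changes were 0.14 (SE 0.16), -0.04 (SE 0.17) and 0.05 (SE 0.19), with limma adjusted p of 0.669, 0.923 and 0.912. For *col1a1b* and *col1a2* the sign turned when single libraries were left out. The fold from the lowest to the highest of the 6 libraries was below 1.5 for all 3 genes.

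Type V chains sit in the core of type I fibrils and start their assembly. *col5a1* was at 371, 402 and 552 normalized CPM in the mutant libraries, against 343, 302 and 576 in the sibling libraries (0.15, SE 0.27, limma adjusted p = 0.785), with replicate 3 of both groups the highest. *col5a3a*, an alpha 3 chain gene, was at 39.6, 61.9 and 50.2 normalized CPM in the mutant libraries, against 22.9, 25.3 and 46.9 in the sibling libraries, and differed most within pairs 1 and 2 (0.76, 1.26 and 0.10). Its log2 fold change of 0.71 (SE 0.28) had an unadjusted p of 0.0364 and did not pass (limma adjusted p = 0.207, and 0.0508 with the block). The duplicate *col5a3b* had a log2 fold change of 0.17 and lay between 373 and 492 normalized CPM in the 6 libraries.

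*col24a1*, a minor fibrillar collagen, had the largest positive difference among the 52. It was at 33.8, 44.4 and 25.7 normalized CPM in mutant replicates 1, 2 and 3, against 19.4, 17.9 and 21.9 in sibling replicates 1, 2 and 3, and all mutant libraries exceeded all sibling libraries, though mutant replicate 3 lay close to sibling replicate 3. The level was 34.6 ± 9.4 normalized CPM in mutants and 19.8 ± 2.0 in siblings (SD, n = 3 each). The log2 fold change was 0.75 (SE 0.21, limma adjusted p = 0.102 without and 0.0343 with the block). Within pairs it was 0.77, 1.26 and 0.22. Of the 15 fibrillar genes 12 had a positive log2 fold change, with a class median of 0.17. The negative ones were *col1a1b*, *col11a1b* and *col27a1b*. *col5a2b* was at 0.49 to 1.11 normalized CPM in the 6 libraries.

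All 6 type IV genes, which build basement membranes, had positive log2 fold changes, from 0.12 to 0.58. The sign held for all 6 in pairs 1 and 2. In pair 3 the mutant was higher for 2 of the 6, and the median was -0.07. With the block 1 of the 6 rose, beside 6.85% of all genes. The summed level of the 6 was 875, 912 and 1016 in the mutant libraries, against 734, 741 and 1072 in the sibling libraries. They form 3 pairs of direct neighbours on opposite strands, *col4a1* with *col4a2* on chromosome 9, *col4a3* with *col4a4* on chromosome 15 and *col4a5* with *col4a6* on chromosome 7. The strands are those of the deposited table, and adjacency is from the RefSeq table of assembly GRCz12tu. The strand setting of the counting is not given in the sources used here, so reads of any genes that overlap cannot be told apart. Whether the genes of these pairs overlap was not examined.

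*col4a3*, whose chain forms trimers with alpha 4 and alpha 5, was at 18.6, 26 and 29.8 normalized CPM in the mutant libraries, against 13.6, 13.6 and 21.9 in the sibling libraries. *col4a4* was at 17.6, 27.5 and 24.9 normalized CPM in the mutant libraries, against 12.9, 11.8 and 23.3 in the sibling libraries. The mutant library was higher in every same-number pair for both, by 0.42, 0.88 and 0.43 on the log2 scale for *col4a3* and 0.42, 1.15 and 0.09 for *col4a4*. The groups overlapped, since sibling replicate 3 exceeded mutant replicate 1. *col4a3* had a log2 fold change of 0.58 (SE 0.24) and passed with the block (limma adjusted p = 0.0332, against 0.217 without), whereas *col4a4*, at 0.55 (SE 0.27), did not pass (limma adjusted p = 0.0893 with and 0.29 without the block). The difference between these 2 calls was not tested. The ratio of *col4a3* to *col4a4* in the deposited values, which is not a molar ratio, was 1.06, 0.945 and 1.2 in mutants, against 1.05, 1.15 and 0.938 in siblings.

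*col4a5* and *col4a6*, whose chains assemble together, kept the steadiest ratio of the chain pairs examined. *col4a5* was at 521, 548 and 616 normalized CPM in the mutant libraries, against 451, 459.8 and 645 in the sibling libraries. *col4a6* was at 248, 242 and 282 normalized CPM in the mutant libraries, against 206, 201 and 306 in the sibling libraries. Their ratio was 2.1, 2.27 and 2.18 in mutants, against 2.19, 2.29 and 2.11 in siblings, a range of 1.09-fold over the 6 libraries, the narrowest of 19 ratios between collagens. *col4a1*, of the most widespread basement membrane trimer, was at 36.5, 35.4 and 31.1 normalized CPM in the mutant libraries, against 25.2, 28.5 and 43.2 in the sibling libraries, with sibling replicate 3 the highest library. Its partner *col4a2* was at 33.2, 34.4 and 31.5 normalized CPM in the mutant libraries, against 24.5, 26.4 and 33.1 in the sibling libraries. Limma adjusted p for these 4 genes was 0.412 to 0.789.

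Multiplexins lie at basement membranes. *col18a1a*, the precursor of endostatin, was at 492, 714 and 599.9 normalized CPM in the mutant libraries, against 358, 358 and 505 in the sibling libraries. The mutant was higher in every pair (0.46, 0.99 and 0.25), and the groups overlapped because sibling replicate 3 slightly exceeded mutant replicate 1. Its log2 fold change was 0.57 (SE 0.20, unadjusted p = 0.0222, limma adjusted p = 0.167, and 0.0518 with the block). *col15a1b* stood the other way, at 34.9, 29.3 and 34.4 normalized CPM in the mutant libraries, against 36.3, 34.9 and 48.8 in the sibling libraries (-0.26, SE 0.17, limma adjusted p = 0.42), with the mutant lower in each pair. *col18a1b* was at 1.4, 0.88 and 1.31 normalized CPM in the mutant libraries, against 1.9, 1.24 and 1.66 in the sibling libraries.

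Type VII collagen anchors the epidermal basement membrane to the dermis, and type XVII is a transmembrane collagen of basal epidermal cells. *col7a1* was at 102, 102 and 119.7 normalized CPM in the mutant libraries, against 79.4, 82.1 and 135 in the sibling libraries. *col7a1l* was at 43, 54.7 and 65.1 normalized CPM in the mutant libraries, against 37.7, 37.3 and 90.2 in the sibling libraries. Both had their highest library in sibling replicate 3. *col17a1a* was at 77.5, 47.4 and 30.5 normalized CPM in the mutant libraries, against 73.4, 64.5 and 34.6 in the sibling libraries, with replicate 3 at 0.488 of the mean of replicates 1 and 2 in mutants and 0.502 in siblings, the reverse of the pattern of *col2a1a*. *col17a1b* was at 12, 13.8 and 8.74 normalized CPM in the mutant libraries, against 9.87, 13.1 and 9.66 in the sibling libraries. Limma adjusted p for these 4 was 0.72 to 0.914. The epidermal marker list, 17 of 17 measured, summed to 37963, 37861 and 49138 in the mutant libraries, against 36719, 30939 and 39192 in the sibling libraries. It was highest in replicate 3 of each group, where *col17a1a* was lowest, and its part in these values was not tested.

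Of the 13 FACITs, 12 had a positive log2 fold change and 0 passed with or without the block (limma; 1 at an unadjusted p under 0.05). Over all genes 13.7% passed with and 1.7% without it, and 20.9% had an unadjusted p under 0.05. The class median was 0.19. Besides type IX, types XII and XIV bind the surface of type I fibrils. *col14a1a* was at 75.8, 119.7 and 109.7 normalized CPM in the mutant libraries, against 61.5, 59.2 and 99.4 in the sibling libraries, higher in the mutant in each pair (0.30, 1.0 and 0.14; log2 fold change 0.48, SE 0.25, limma adjusted p = 0.315, and 0.102 with the block). Its duplicate *col14a1b* was at 255, 263 and 157 normalized CPM in the mutant libraries, against 227, 217 and 174 in the sibling libraries, with replicate 3 the lowest of each group (0.10, SE 0.23). The ratio of *col14a1a* to *col14a1b* was 0.297, 0.455 and 0.699 in mutants, against 0.271, 0.273 and 0.571 in siblings. This ratio was highest in replicate 3 of each group and higher in the mutant of each same-number pair, and the groups overlapped. *col12a1a* and *col12a1b*, with log2 fold changes of 0.05 and 0.19, lay between 176 and 242 and between 111 and 203 normalized CPM.

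*col19a1* was listed under 2 gene IDs on the same strand of chromosome 13, so the reads of this symbol are split and the IDs are given apart. One ID, ENSDARG00000096073, was at 1.34, 1.58 and 1.09 normalized CPM in the mutant libraries, against 0.55, 0.92 and 0.67 in the sibling libraries. Its groups did not overlap (log2 fold change 0.45, SE 0.15, unadjusted p = 0.018, limma adjusted p = 0.152, and 0.0538 with the block). The other, ENSDARG00000076163, was at 5.9, 6.52 and 5.52 normalized CPM in the mutant libraries, against 4.92, 6.7 and 4.62 in the sibling libraries (0.13, SE 0.16). *col16a1*, *col21a1* and *col22a1* had log2 fold changes of 0.07, 0.24 and 0.01, and *col22a1* is placed on an unplaced scaffold.

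Type VI, which forms beaded filaments around muscle and in many soft tissues, had negative log2 fold changes in all 5 of its rows, from -0.31 to -0.09, and 0 passed with or without the block (limma; 0 at an unadjusted p under 0.05 without it). The shares over all genes were 13.7% with and 1.7% without the block. The sign held in pairs 2 and 3, with medians of -0.29 and -0.17, and not in pair 1, where the mutant was higher for 3 of 5 and the median was 0.04. *col6a1* was at 93.7, 87.6 and 115 normalized CPM in the mutant libraries, against 98.8, 106 and 124 in the sibling libraries. *col6a2*, a close neighbour on chromosome 11, was at 74.1, 66 and 69.2 normalized CPM in the mutant libraries, against 70.4, 73.8 and 77.8 in the sibling libraries. *col6a3*, as ENSDARG00000077139, was at 39.1, 34.9 and 36.6 normalized CPM in the mutant libraries, against 42.3, 42.9 and 41.4 in the sibling libraries. It was the only collagen whose mutant libraries all lay below all sibling libraries (-0.19, SE 0.13, limma adjusted p = 0.436), as in 13.8% of all genes. A second ID of the symbol, ENSDARG00000095915, was at 0.33 to 2.04 normalized CPM over the 6 libraries, and its sign turned without mutant replicate 3. *col6a4a* was at 71.6, 57.6 and 61.5 normalized CPM in the mutant libraries, against 69.4, 79.8 and 88.5 in the sibling libraries (-0.31, SE 0.16, limma adjusted p = 0.295). Skeletal muscle markers, 22 of 22 measured, summed to 42893, 36764 and 45834 in the mutant libraries, against 57462, 53828 and 58475 in the sibling libraries, lower in every mutant library than in every sibling library, and their part in the type VI values was not tested.

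Type XXVIII is structurally related to type VI through its von Willebrand factor domains. *col28a1a* was at 24.1, 29.2 and 19.7 normalized CPM in mutant replicates 1, 2 and 3, against 16.9, 17.6 and 15.2 in sibling replicates 1, 2 and 3. Every mutant library exceeded every sibling library, and the level was 24.3 ± 4.79 normalized CPM in mutants and 16.6 ± 1.26 in siblings (SD, n = 3 each). The log2 fold change was 0.51 (SE 0.17), which passed with the block (limma adjusted p = 0.0385) and not without it (0.148). Within pairs it was 0.48, 0.70 and 0.35. *col28a2a* followed the replicate number instead, at 128, 201 and 382 normalized CPM in the mutant libraries, against 138, 128 and 408 in the sibling libraries, with replicate 3 exceeding the mean of the others 2.32-fold in mutants and 3.06-fold in siblings (0.15, SE 0.51). *col28a1b* and *col28a2b* were below 2 normalized CPM in each library, and *col28a2b* was listed at 0 in replicate 3 of both groups.

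**Figure D5:**
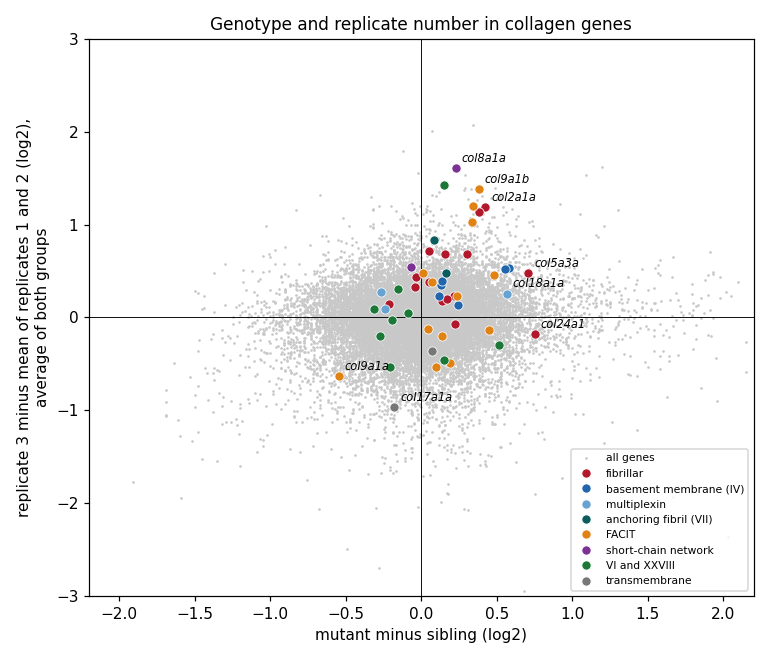
Each point is a gene: the log2 fold change of mutant over sibling on the horizontal axis, and the log2 difference of replicate 3 from the mean of replicates 1 and 2, averaged over both groups, on the vertical axis. All genes are grey and collagens are coloured by class. *col8a1a*, *col9a1b* and *col2a1a* lie high near the vertical axis, *col17a1a* low, and *col24a1* and *col5a3a* to the right. Grey points beyond the axes are not drawn.

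Ratios between chains differed in how far they ranged across the libraries. The ratio of *col11a2* to *col2a1a*, whose chains share the fibrils of cartilage, was 0.167, 0.166 and 0.156 in mutants, against 0.163, 0.173 and 0.167 in siblings, a range of 1.11-fold, while *col2a1a* itself ranged 3.7-fold. That of *col9a1b* to *col9a2* was 1.24, 1.44 and 1.46 in mutants, against 1.25, 1.29 and 1.5 in siblings, a range of 1.21-fold. The ratio of *col1a1a* to *col1a2* ranged 1.24-fold, where *col1a1a* itself ranged 1.34-fold. Other partner chains ranged further, by 1.69-fold for *col11a1a* to *col11a2* and 1.5-fold for *col5a1* to *col5a3b*. Among duplicates, the ratio of *col1a1a* to *col1a1b* ranged 1.27-fold, while that of *col2a1a* to *col2a1b* was 1.56, 1.2 and 2.6 in mutants, against 1.47, 0.93 and 2.33 in siblings, a range of 2.8-fold. In each of these 7 ratios the groups overlapped. The ratios are of reads and are not corrected for gene length.

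Of 30 measured genes of collagen synthesis and modification, 1 rose and 0 fell without the block, or 3.33%, beside 1.41% of all genes that rose. With the block 2 rose, or 6.67%, close to the 6.85% of all genes. At an unadjusted p under 0.05, 6 of the 30 were higher and 0 lower (limma), beside 10.2% and 10.7% of all genes. All mutant libraries exceeded all sibling libraries in 9 of the 30 and lay below them in 0, beside 13.3% and 13.8% of all genes. The list median was 0.15. The gene that rose in both fits was *serpinh1b*, which encodes the collagen chaperone Hsp47 of the endoplasmic reticulum. It was at 244, 226 and 275 normalized CPM in mutant replicates 1, 2 and 3, against 138, 140.4 and 162 in sibling replicates 1, 2 and 3, with no overlap between groups. The log2 fold change was 0.75 (SE 0.14, limma adjusted p = 0.0488, and 0.00989 with the block). The call was lost with a pseudocount of 0.1 (limma adjusted p = 0.0911) or when single libraries were left out, other than mutant replicate 1 (adjusted p up to 0.212, without sibling replicate 2). *p3h2*, a prolyl 3-hydroxylase gene, was at 21.8, 28.6 and 34.1 normalized CPM in the mutant libraries, against 18.6, 14 and 19.1 in the sibling libraries and rose with the block only (limma adjusted p = 0.0327, and 0.122 without). The disulfide isomerase gene *p4hb*, a subunit of prolyl 4-hydroxylase, was at 159.7, 191 and 205 normalized CPM in the mutant libraries, against 148, 158 and 151 in the sibling libraries (limma adjusted p = 0.325).

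Of 18 genes of collagen degradation 1 rose without the block, or 5.56%, beside 1.41% of all genes. With the block 1 rose and 1 fell, or 5.56% each, beside 6.85% and 6.87% of all genes. The gene that rose was *mmp2*, a gelatinase that cleaves type IV and denatured collagen. It was at 136, 185 and 153 normalized CPM in mutant replicates 1, 2 and 3, against 86, 82.3 and 95.7 in sibling replicates 1, 2 and 3, and the groups did not overlap. The log2 fold change was 0.83 (SE 0.16, limma adjusted p = 0.0471, and 0.0115 with the block). The call was lost with a pseudocount of 0.1 (limma adjusted p = 0.0911) or when single libraries were left out, other than mutant replicate 1 (adjusted p up to 0.206, without sibling replicate 2). *fap*, a serine protease gene of fibroblasts, was at 18.6, 11.3 and 23.4 normalized CPM in the mutant libraries, against 27.4, 24.2 and 33.1 in the sibling libraries and fell with the block only (limma adjusted p = 0.023, and 0.18 without). The list median was -0.04.

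Of 11 genes of procollagen processing, 10 of crosslinking, 17 of collagen receptors and 20 partners in basement membranes, 0 passed without the block (limma). Over all genes 1.7% did. At an unadjusted p under 0.05 there were 3, 1, 2 and 4, beside 20.9% of all genes. With the block 0, 0, 1 and 1 rose and 0 fell, beside 6.85% and 6.87% of all genes. The syndecan gene *sdc4*, of a heparan sulfate receptor, was at 177, 277 and 254 normalized CPM in the mutant libraries, against 142, 126 and 146 in the sibling libraries and rose with the block only (limma adjusted p = 0.0243, and 0.0881 without). The procollagen protease gene *adamts3* was at 8.9, 8.66 and 9.02 normalized CPM in the mutant libraries, against 10.1, 13.6 and 15.3 in the sibling libraries (limma adjusted p = 0.165). *bmp1b* was at 1.81, 0.78 and 1.09 normalized CPM in the mutant libraries, against 1.73, 2.59 and 2.54 in the sibling libraries (adjusted p = 0.166). Of the lysyl oxidase family, which crosslinks collagen, *loxl2a* was at 22, 23.1 and 21.8 normalized CPM in the mutant libraries, against 19.3, 18.7 and 21.2 in the sibling libraries (limma adjusted p = 0.502) and *loxl3a* below 1 in each library. The laminin beta gene *lamb2* was at 158, 212 and 253 normalized CPM in the mutant libraries, against 110.2, 115 and 174 in the sibling libraries and rose with the block only (limma adjusted p = 0.0208, and 0.175 without). *itga2.3*, an integrin alpha 2 gene, was at 0.20 to 1.45 normalized CPM. The dystroglycan gene *dag1* was at 119, 103 and 119 normalized CPM in the mutant libraries, against 140.0, 164 and 174 in the sibling libraries. The laminin gene *lamc3* was at 28.5, 22.8 and 21.1 normalized CPM in the mutant libraries, against 33.1, 32.9 and 34.9 in the sibling libraries. Both lay below every sibling library in every mutant library (limma adjusted p = 0.126 and 0.14), and neither passed with the block (limma adjusted p = 0.0521 and 0.0585).

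The shorter deposited table, of 956 genes whose selection rule is not given in the labels, held 5 of the 52 collagens, or 9.62%, beside 4.39% of all genes. They were *col2a1a*, *col8a1a*, *col9a1b*, *col28a2a* and *col28a2b*. The first 4 were among the 7 collagens with replicate 3 at least 1.5 times the other replicates in both groups, and *col28a2b* was at 0 in replicate 3 of both. *col24a1*, *col28a1a* and *col4a3* were not in that table.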

How the data were processed

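RNA-seq of 6 zebrafish libraries (3 labelled *dhx38* mutant, 3 wild-type sibling, 36 hpf) was analysed from 1 table of 21769 genes. The values are a normalized signal per gene (normalized CPM) deposited by the authors with 2 decimals, per the file headers. fastp, STAR, featureCounts, edgeR and GRCz11 are named in the submitters' processing notes, without roles or versions. What scaled the values, and whether genes were filtered, is not stated there. No step on the reads was repeated.

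The test was limma (version 3.58.1, R version 4.3.3, default eBayes) on log2(value + 1), mutant minus sibling, over all 21769 genes without a filter, with Benjamini-Hochberg adjustment and a threshold of 0.05. The fit without the block was tested on simulated data, with independent noise in each library and no effect of replicate number. The simulation thus does not cover the differences between replicate numbers seen in these data. Fold changes on this scale understate the change of low genes. The labels do not say whether the replicates are separate clutches, and a p-value covers no more than the spread of these 6 libraries, which may be technical. Class medians, ratios, pair differences and sums of squares are descriptions without a test.

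Replicates are numbered 1 to 3 in the labels of each group. Across all genes, the deviations of same-number libraries from their group means had correlations of 0.45, 0.43 and 0.57 for numbers 1, 2 and 3, so the numbers were taken to pair the libraries. The fit without the block stayed the main one. Reads per library (19.5 to 37.7 M) were estimated from the spacing of low values, which in replicates 1 and 2 is only about 3 times the rounding step. The count test on recovered reads was therefore not run.

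Members, classes and lists were chosen with earlier results of these data known. Collagens were named when called with or without the block, or among the 3 of highest mean in their class, and of each companion list the called genes and the 2 of smallest p. *dhx38* and *serpinh1b* were named outright. All other genes printed, among them *col2a1a*, *col5a3a*, *col9a1a* and *col14a1a*, were named after their values were seen. Gene symbols are as deposited. Sequences of these genes were not used here.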

Additional observations from a re-analysis of the deposited data

How the results depend on the processing

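No collagen passed without the replicate block under a pseudocount of 0.1, a filter on low values (at least 1 normalized CPM in 3 libraries), centring on the median gene, a variance trend, or with any 1 library left out (limma). An adjusted p of 0.01 or a fold change of at least 1.5 only narrows the main fit, where 0 collagens passed. Neither setting could therefore give a call. From replicates 1 and 2 only, 0 of all genes passed, so that fit could not set collagens apart. The replicate block gave 3 collagens, its combination with a variance trend 7, and its combination with a pseudocount of 0.1 gave 0. The 7 were *col4a3*, *col5a3a*, *col14a1a*, *col18a1a*, *col24a1* and *col28a1a*, higher in mutants, and *col9a1a*, lower. Over all genes 370 passed, against 205 with a pseudocount of 0.1, 169 with the block and that pseudocount, 2986 with the block, 3800 with block and trend, 41 at an adjusted p of 0.01, 0 from replicates 1 and 2 only (4236 at an unadjusted p under 0.05), and 31 to 1731 with 1 library left out (31 without sibling replicate 3, 1731 without mutant replicate 1). The cause was not tested. The collagen median ran from -0.02 to 0.32 with 1 library left out and was 0.27 from replicates 1 and 2 only.

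With replicates 1 and 2 only the sign turned in 3 of 52 collagens, *col1a1b* (0.051), *col11a1b* (0.088) and *col6a3* as ENSDARG00000095915 (0.088). Leaving out 1 library keeps its same-number partner, so replicate numbers are then unequal between the groups. With 1 library left out the log2 fold change turned sign in 22 of 52 collagens. It ran from -0.14 to 0.12 for *col1a1b*, -0.039 to 0.22 for *col1a2*, -0.007 to 0.91 for *col2a1a*, -0.035 to 0.34 for *col4a1*, -0.031 to 0.43 for *col5a1*, -0.13 to 0.34 for *col5a2a*, -0.48 to 0.12 for *col6a3* as ENSDARG00000095915, -0.12 to 0.50 for *col7a1l*, -0.23 to 0.84 for *col8a1a*, -0.27 to 0.21 for *col8a2*, -0.072 to 0.93 for *col9a1b*, -0.082 to 0.81 for *col9a2*, -0.023 to 0.74 for *col9a3*, -0.18 to 0.17 for *col11a1b*, -0.024 to 0.87 for *col11a2*, -0.063 to 0.17 for *col12a1a*, -0.034 to 0.34 for *col14a1b*, -0.054 to 0.28 for *col16a1*, -0.51 to 0.14 for *col17a1a*, -0.066 to 0.24 for *col17a1b*, -0.17 to 0.35 for *col22a1* and -0.27 to 0.68 for *col28a2a*. Of 810 results over the alternatives, for the genes named by rule and the collagens added to them, 720 kept direction and side of the threshold, 33 gained and 24 lost the threshold, and 33 turned sign, none of them called. An adjusted p of 0.01 and a fold change of at least 1.5, applied to the main fit, could neither turn a sign nor gain a call.

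Count tests on recovered reads (edgeR and DESeq2 size factors) were not run, since the rounding of the deposited values left the reads uncertain in replicates 1 and 2. Sequence features and levels per length were not used here. A level of 3 reads was 0.0776 to 0.164 normalized CPM, and 6 collagens had a mean under 2 normalized CPM. Depth and replicate number cannot be told apart, and the labels do not assign the 2 providers to libraries.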

Other observations

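Matrix proteins other than collagen, 43 of 51 listed genes measured, had a median log2 fold change of 0.00 and 0 genes that passed without the block (limma; 3 higher and 3 lower at an unadjusted p under 0.05). Over all genes 10.2% were higher and 10.7% lower at that unadjusted p. With the block 5 rose and 3 fell, or 11.6% and 6.98%, beside 6.85% and 6.87% of all genes. *fn1b*, a fibronectin gene, was at 488, 767 and 348 normalized CPM in the mutant libraries, against 219, 297 and 192 in the sibling libraries (log2 fold change 1.12, SE 0.29, limma adjusted p = 0.0914, and 0.00362 with the block), and no mutant library overlapped a sibling library. *vtna*, a vitronectin gene, was at 13.2, 12.6 and 15.2 normalized CPM in the mutant libraries, against 9.7, 9.35 and 7.79 in the sibling libraries (limma adjusted p = 0.0949, and 0.0387 with the block). *fbln5*, of an elastic fibre protein, was at 2.86, 1.68 and 1.48 normalized CPM in the mutant libraries, against 4.26, 4.21 and 2.75 in the sibling libraries and fell with the block only (limma adjusted p = 0.0218, and 0.142 without).

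Regulators of collagen genes, 25 of 27 measured, had a median of -0.08, with 0 called without the block (limma; 3 lower at an unadjusted p under 0.05). Over all genes 10.7% were lower at that unadjusted p. With the block 1 of the 25 rose and 1 fell, or 4% each, beside 6.85% and 6.87% of all genes. *sox9b*, whose product drives cartilage genes, was at 118, 56.9 and 50.4 normalized CPM in the mutant libraries, against 149, 139 and 100.9 in the sibling libraries. It fell with the block only (log2 fold change -0.86, SE 0.32, limma adjusted p = 0.0198, and 0.175 without), and was the lower in the mutant of each pair (-0.34, -1.27 and -0.99). Its duplicate *sox9a* did not pass (limma adjusted p = 0.178 with and 0.511 without the block), with pair differences of 0.13, -0.57 and -0.70. *ccn2a*, a connective tissue growth factor gene, rose with the block only (limma adjusted p = 0.0258, and 0.376 without), at 76.4, 64.1 and 122 normalized CPM in the mutant libraries, against 50.2, 38.4 and 91.3 in the sibling libraries. *smad3a* was at 32.2, 24.2 and 32.4 normalized CPM in the mutant libraries, against 36.9, 39.4 and 43.7 in the sibling libraries (limma adjusted p = 0.186).

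Fin fold markers, 15 of 15 measured, summed to 1292 to 1344 normalized CPM in mutants and 1121 to 1258 in siblings. With the block 3 of 15 rose, where 6.85% of all genes did, and 0 passed without it, where 1.7% did. The 3 were *frem2a*, *frem2b* and *frem1a* (limma adjusted p = 0.0288, 0.0428 and 0.0488 with the block). *frem2a*, a basement membrane gene of the fin fold, was at 82.2, 170.0 and 143 normalized CPM in the mutant libraries, against 54.6, 67 and 108 in the sibling libraries (limma adjusted p = 0.223 without the block). Of the 15 fin fold genes 10 had a positive log2 fold change, and the list median was 0.06. Sclerotome and fibroblast markers, 16 of 19 measured, summed to 1034 to 1280.5 normalized CPM in mutants and 1096 to 1211 in siblings. Endothelial markers, 18 of 18 measured, summed to 347 to 386 normalized CPM in mutants and 309.5 to 327 in siblings. Of these 18, 9 had a positive log2 fold change, and the list median was -0.04. The sum included the stabilin gene *stab2*, the 1 endothelial gene that passed without the block (limma adjusted p = 0.0398). It was at 83.6, 129 and 104 normalized CPM in the mutant libraries, against 44.1, 50.9 and 55.6 in the sibling libraries. Neural markers, 21 of 21 measured, summed to 1431 to 2169 normalized CPM in mutants and 2457 to 2788 in siblings. Liver, gut and yolk markers, 20 of 24 measured, summed to 16859.9 to 23392 normalized CPM in mutants and 9992 to 16500.5 in siblings. Erythroid markers, 18 of 19 measured, summed to 3886 to 9061 normalized CPM in mutants and 6464 to 17291 in siblings. Larger shares than in the fin fold moved with the block in other lists. Of the neural genes 9 of 21 fell (42.9%) and 0 rose. Of the liver, gut and yolk genes 9 of 20 rose (45%) and 0 fell. Of the lens genes 16 of 21 fell (76.2%) and 0 rose. Of the skeletal muscle genes 9 of 22 fell (40.9%) and 1 rose. Over all genes 6.85% rose and 6.87% fell. Without the block 0 genes of the neural, liver, gut and yolk, lens and skeletal muscle lists passed (limma), beside 1.7% of all genes. Groups did not overlap in the endothelial, neural, fin fold and liver, gut and yolk sums. The endothelial sum was not made without *stab2*, nor the fin fold sum without the *frem* genes. With list medians of -0.04 and 0.06, these sums do not show a rise across their lists. The part of these cell types in the collagen values was not tested.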
